A study of Mus musculus with 6 samples.

Results

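miR-191 and miR-425 are the guide strands of a pair of neighbouring microRNA (miRNA) hairpins. They were taken by name from a TaqMan RT-PCR panel of bone marrow-derived macrophages, where each has 1 assay, so that the pair makes up 2 of 596 miRNA assays. An assay of the opposite strand of the first hairpin, miR-191*, was also on the panel and is described beside its guide. RNA came from male mice aged 6 to 8 weeks. The WT group was LysM-Cre/Dicerwt/wt/Apoe–/– and the KO group LysM-Cre/Dicerflox/flox/Apoe–/–, with 3 mice each, so both groups lacked Apoe and both carried the Cre driver. Over 7 days of culture with L929-conditioned medium, which supplies the macrophage growth factor, bone marrow cells became macrophages. LysM-Cre acts in cells of the myeloid lineage, so the deletion depends on when and in how many of the cultured cells it is active, and the panel does not measure Dicer itself.

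Mature miRNAs are made when Drosha frees a hairpin from a longer transcript and Dicer cuts the hairpin into a short duplex, of which mostly the guide strand is kept in an Argonaute protein. The bases near its 5′ end, the seed, select the target mRNAs. miR-191 and miR-425 are transcribed together in many tissues from a protein-coding host gene, Dalrd3. miR-191 is abundant and so evenly expressed that it is often used as a reference miRNA in RT-PCR. The comparison of KO with WT asks how far each strand of these hairpins depends on Dicer in macrophages.

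The sequences of the strands that the assays are named for show how different the products of the 2 hairpins are. They are from RefSeq, build GRCm38.p6, and the 3 assays were assigned to entries by name, not by the sequence of the assay. In the mature strands the capitals mark the seed, bases 2 to 8.
miR-191 (miR-191-5p): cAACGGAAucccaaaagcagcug
miR-425 (miR-425-5p): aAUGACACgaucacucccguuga
miR-191* (miR-191-3p): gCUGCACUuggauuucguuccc
The 2 guides are of the same length, 23 bases, and have the same base at 2 of the 7 seed positions. Over all 23 positions, without gaps, they match at 5. No other mature mouse miRNA in the table, which holds 1679 names, has the seed of miR-191. The seed of miR-425 is shared with miR-489-3p, and the miR-489 assay of the panel was at Ct 40, without amplification, in all 6 samples.

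The hairpins are shown whole because Dicer cuts them between the strands. The capitals mark the mature strands, with the guide first.
Mir191, chr9:108568319-108568392, plus strand: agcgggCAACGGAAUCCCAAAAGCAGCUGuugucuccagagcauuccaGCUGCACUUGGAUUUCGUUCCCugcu
Mir425, chr9:108568777-108568861, plus strand: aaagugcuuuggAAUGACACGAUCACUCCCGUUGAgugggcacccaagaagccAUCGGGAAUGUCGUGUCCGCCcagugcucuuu
The hairpins, of 74 and 85 bases, lie 384 bases apart on chromosome 9. Both overlap Dalrd3 in the RefSeq gene table, which does not say whether an exon or an intron is there.

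Abundance was read from the threshold cycle (Ct), which falls by 1 for each doubling of template. The assays stand in 2 blocks of rows, each with its own 5 endogenous controls (U6, U87, Y1, snoRNA135 and snoRNA202), small RNAs that Dicer does not make. Both guides are in the first block and miR-191* is in the second. In the first block the mean control Ct was 20.2 ± 1.02 for WT and 20.8 ± 1.82 for KO (SD over 3 samples each; two-sided exact permutation p = 0.8), and the latest value, 22.8, was that of KO replicate 1. That sample also had the fewest miRNA assays below Ct 35, 219 beside 277 and 290 in the other KO samples and 307 to 309 in WT. Of the miRNAs of haematopoietic cells, miR-223 was at Ct 15.04 to 16.5 in WT and 16.9 to 20.4 in KO. The muscle miRNA miR-1, the liver miRNA miR-122 and the epithelial miRNA miR-205 were at Ct 40 in all 6 samples, but other epithelial miRNAs amplified, with miR-200c at Ct 23.8 to 26.7 in WT and 24.6 to 30.02 in KO. The endothelial miR-126-3p was at Ct 26.4 to 28.6 in WT and 26.9 to 35.97 in KO. The neural miR-9 was at 29.3 to 30.1 in WT, and at 31.996 and 29.8 in KO replicates 2 and 3. Its well in KO replicate 1 was at Ct 40. The lymphocyte miR-342-3p was at 18.98 to 20.8 in WT and 20.4 to 27.7 in KO. For miR-181a the range was 22.2 to 23.7 in WT and 24.3 to 27.96 in KO. For miR-150 it was 26.0 to 28.6 in WT and 26.6 to 30.4 in KO. The erythroid miR-451 was below Ct 35 only in WT replicate 2 (34.6) and KO replicates 2 and 3 (32.975 and 33.5). Muscle miR-133a amplified in WT replicate 1 (Ct 32.0) and KO replicate 1 (34.4) and neural miR-124 in WT replicate 1 (27.98), each at Ct 40 elsewhere. The part of cells other than macrophages in the values below was not tested. In bulk RNA, fewer cells with a miRNA and less of it per cell cannot be told apart.

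miR-191 was lower in each KO sample than in each WT sample once scaled to the controls, but the difference did not pass the test across all assays. The Ct of miR-191 was 19.5, 18.0 and 17.2 for WT replicates 1, 2 and 3, against 24.0, 19.7 and 18.5 for KO replicates 1, 2 and 3. On Ct alone KO replicate 3 lay among the WT samples. The log2 abundance relative to the mean of the 5 controls was 1.58, 2.52 and 1.90 in WT, against -1.13, 0.57 and 0.85 in KO. On this scale the groups did not overlap, and KO replicate 1 stood lowest. The group means were 2.00 ± 0.48 for WT and 0.10 ± 1.07 for KO (SD, n = 3 per group; a two-sided exact permutation test gave p = 0.1, the smallest that 3 against 3 can give). The log2 difference was -1.90 ± 0.69 (SE), a level 3.74-fold lower in KO, with an adjusted p of 0.0613 in limma over all 282 tested assays and of 0.048 when replicate number entered as a block. Against the WT mean, KO replicates 1, 2 and 3 were 8.74-fold, 2.71-fold and 2.22-fold lower. Without KO replicate 1 the log2 difference was -1.29 (adjusted p = 0.0742).

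miR-425 was also lower in KO in the wells that amplified, and 1 KO well did not amplify. The Ct of miR-425 was 22.4, 22.2 and 20.4 in WT, against 23.9 and 21.5 in KO replicates 2 and 3, while the well of KO replicate 1 was at Ct 40. The log2 abundance relative to the controls was -1.34, -1.68 and -1.26 in WT, against -3.67 and -2.13 in KO replicates 2 and 3. Both measured KO samples lay below all WT samples, and KO replicate 3 lay nearer to WT than KO replicate 2. Over these wells the means were -1.42 ± 0.22 in WT (SD, n = 3) and -2.90 ± 1.09 in KO (SD, n = 2; exact permutation p = 0.1, two-sided, the smallest that 3 against 2 can give). The log2 difference was -1.48, a level 2.78-fold lower in KO. In limma with wells at Ct 40 left out it had an SE of 0.68 and an adjusted p of 0.114.

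The well of KO replicate 1 decides how large the difference of miR-425 is. If the well held no template, its log2 abundance, with the Ct set to the ceiling of 35, was at most -12.16, far below the other samples. The log2 difference of the group means was then -4.56 ± 2.42 (SE) or lower (limma, adjusted p = 0.159), and no such bound follows if the well failed. The direction was the same in both treatments of the well and neither passed the test.

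Such a well was uncommon among assays that amplified as early as miR-425. In the other 5 samples the mean Ct of miR-425 was 22.1. Of the 53 assays below Ct 35 in all of these 5 samples with a mean Ct no later than that, 2 were at Ct 40 in KO replicate 1. These were miR-495 and miR-425 itself, whose mean set the limit. With a mean Ct under 25 as the limit, 6 of 110 assays, miR-425 among them, were at Ct 40 there. Of all 246 assays below Ct 35 in the other 5 samples, 30 were at Ct 40 in KO replicate 1. The same count, for a sample against the other 5, was between 0 and 3 in each of the other samples. Whether the well failed or held no template was not tested.

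**Figure D1:**
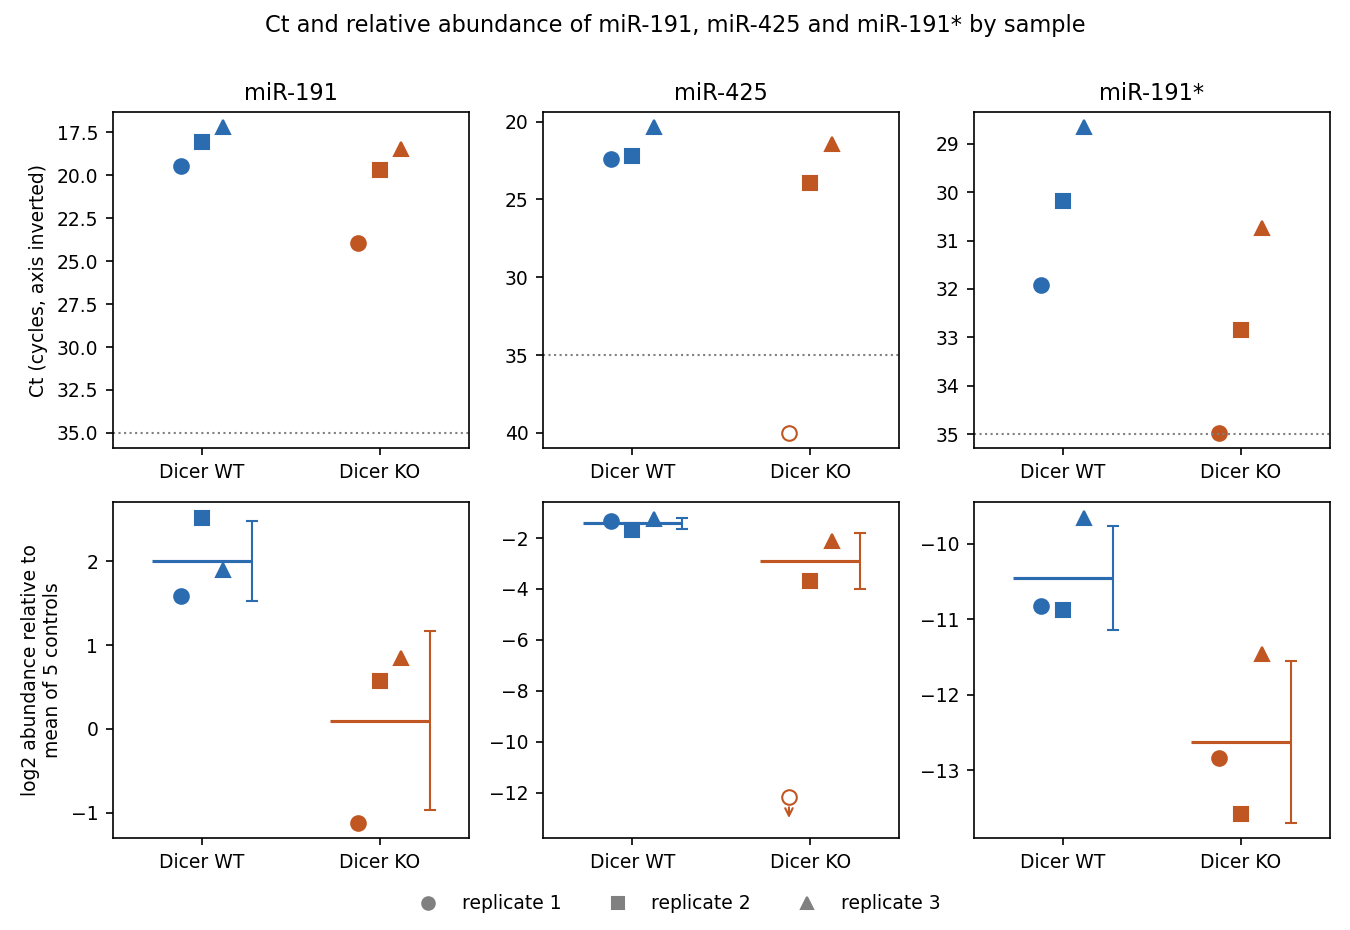
Ct (top, cycles, axis inverted, dotted line at the ceiling of 35) and log2 abundance relative to the mean of 5 controls (bottom) of miR-191, miR-425 and miR-191* in 3 WT (blue) and 3 KO (orange) samples, with symbols for replicate numbers, and lines and bars for mean and SD of measured wells. The KO samples sit below the WT samples in each lower panel, and the open symbol with an arrow is the miR-425 well of KO replicate 1, at most -12.16 if it held no template.

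The opposite strand of the miR-191 hairpin was far later in the PCR and lower in KO as well. The Ct of miR-191* was 31.9, 30.2 and 28.7 in WT, against 34.975, 32.8 and 30.7 in KO replicates 1, 2 and 3, so the well of KO replicate 1 was just below the ceiling. Relative to the controls of the second block, its log2 abundance was -10.83, -10.88 and -9.66 in WT, against -12.83, -13.58 and -11.46 in KO. The groups did not overlap, and here KO replicate 2 was the lowest, not KO replicate 1. The log2 difference was -2.17 ± 0.72 (SE, n = 3 per group), a level 4.50-fold lower in KO (limma, adjusted p = 0.0521, 0.042 with the replicate block). When KO replicate 3 was left out it was -2.75 (adjusted p = 0.0355). With any other sample left out it did not pass, with values from -2.38 to -1.69 and adjusted p values from 0.106 to 0.143.

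The guide and the opposite strand of miR-191 are in different blocks, so their comparison rests on the references of both blocks. The log2 abundance of the guide minus that of miR-191* was 12.46 ± 0.92 for WT and 12.72 ± 1.27 in KO (SD, n = 3 per group), each strand relative to the controls of its own block. The difference between the groups was 0.27 (exact permutation p = 0.7, two-sided; a comparison chosen after the values were seen). With the mean of the miRNAs detected in all 6 samples as the reference of each block, an alternative chosen after seeing the data, the distance was 10.94 ± 0.43 in WT and 12.45 ± 0.67 in KO (SD, n = 3 each). The groups then did not overlap and differed by 1.51, more than either SD (exact permutation p = 0.1, two-sided, the smallest possible). That reference is a separate mean for each block. With it the log2 difference of miR-191 moved from -1.90 to -0.02 and that of miR-191* from -2.17 to -1.53. The 1.51 cannot be told apart from a shift between the references of the blocks. With the other references tried the difference was 0.12 to 0.45 (exact permutation p = 0.7 to 0.9, two-sided). The distance itself also holds the difference in efficiency of the 2 assays.

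The 2 guides, whose hairpins lie in the same host gene, can be compared within a sample without any control, since both are in the first block. The log2 abundance of miR-191 minus that of miR-425 was 2.92, 4.197 and 3.16 in WT, against 4.24 and 2.98 in KO replicates 2 and 3. The KO values lay across almost the same range as the WT values. The means were 3.43 ± 0.68 in WT (SD, n = 3) and 3.61 ± 0.89 in KO (SD, n = 2), and their difference, 0.18, was smaller than either SD (exact permutation p = 0.7, two-sided). Its sign turned without WT replicate 1, to -0.07, and without KO replicate 2, to -0.45. Between same-numbered samples the mean difference, over replicates 2 and 3, was -0.07. In KO replicate 1 miR-191 amplified at Ct 24.0 and miR-425 did not. If that well held no template, the difference there was at least 11.03 and that between the groups at least 2.66; if the well failed, no bound follows.

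Neither guide fell past the threshold: 0 of 2 members had an adjusted p under 0.05 in limma, 1 of 2, miR-191, had an unadjusted p under 0.05 (0.028), and 1 of 2, again miR-191, passed with the replicate block. Of all 282 tested assays 37.2% were lower at the adjusted threshold, 53.2% at the unadjusted one and 41.8% with the block, while 0.355% were higher. The 37.2%, 105 assays, became 2, 2, 2 and 3 assays without WT replicate 1, 2 or 3 or KO replicate 2. The share of assays whose KO samples all lay below the WT samples was 59.9%, and both members were among them when the ceiling stood for the missing well. Among the adjusted p values of all assays 101 lay between 0.03 and 0.05, so that of miR-191 lies just past a dense part of the range.

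miR-191 sat in the middle of the tested assays. Its log2 difference, -1.90, had rank 143 of 282 from the lowest, and the median of all tested assays was -1.91, with quartiles of -2.44 and -1.004. For miR-191* the rank was 104. With the ceiling for the missing well miR-425 had rank 10. Its value over measured wells, -1.48, leaves out KO replicate 1, which the median of -1.91 includes. When KO replicate 1 was left out for every assay, the median was -1.49 over 293 tested assays, close to the value of miR-425. When the mean of the miRNAs detected in all 6 samples replaced the controls as reference, the log2 difference of miR-191 was -0.02 ± 0.47 (SE; limma, adjusted p = 0.985), a test that asks whether miR-191 moved apart from the average miRNA. With that reference the value for miR-425, with its KO replicate 1 well at the ceiling, was -2.68 (adjusted p = 0.57) and that for miR-191* was -1.53 (adjusted p = 0.309).

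**Figure D2:**
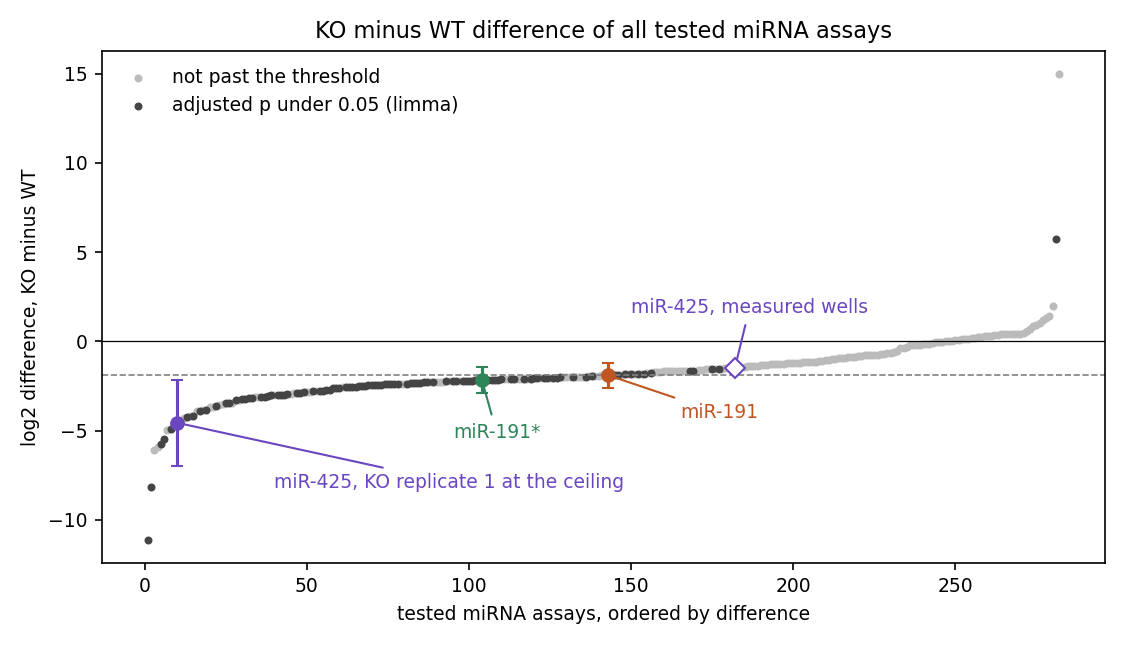
Log2 difference of KO minus WT (vertical) of the 282 tested miRNA assays in rising order (horizontal), dark where the adjusted p of limma was under 0.05, with the median as a dashed line and SE bars for the coloured assays. miR-191 lies on the median of -1.91, and miR-425 lies at -4.56 with the KO replicate 1 well at the ceiling or at -1.48 (open diamond) over measured wells. The diamond leaves out KO replicate 1, which the other points and the median include.

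The choice of control moved the size of the difference but not its direction. Against each of the 5 controls alone, the log2 difference of miR-191 was between -2.02 (Y1) and -1.74 (snoRNA202), 4.06-fold to 3.35-fold lower in KO. The KO samples all lay below the WT samples with U6, U87, Y1 and snoRNA202. With snoRNA135 KO replicate 3, at 2.50, was above WT replicate 1, at 2.42. Over the measured wells of miR-425 the log2 difference was between -1.79 (U6) and -1.13 (snoRNA135). Its measured KO samples lay below the WT samples with U6, U87 and Y1, and overlapped them with snoRNA135 and snoRNA202. For miR-191* the values were between -2.45 (U6) and -1.99 (snoRNA135), with overlap for Y1.

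**Figure D3:**
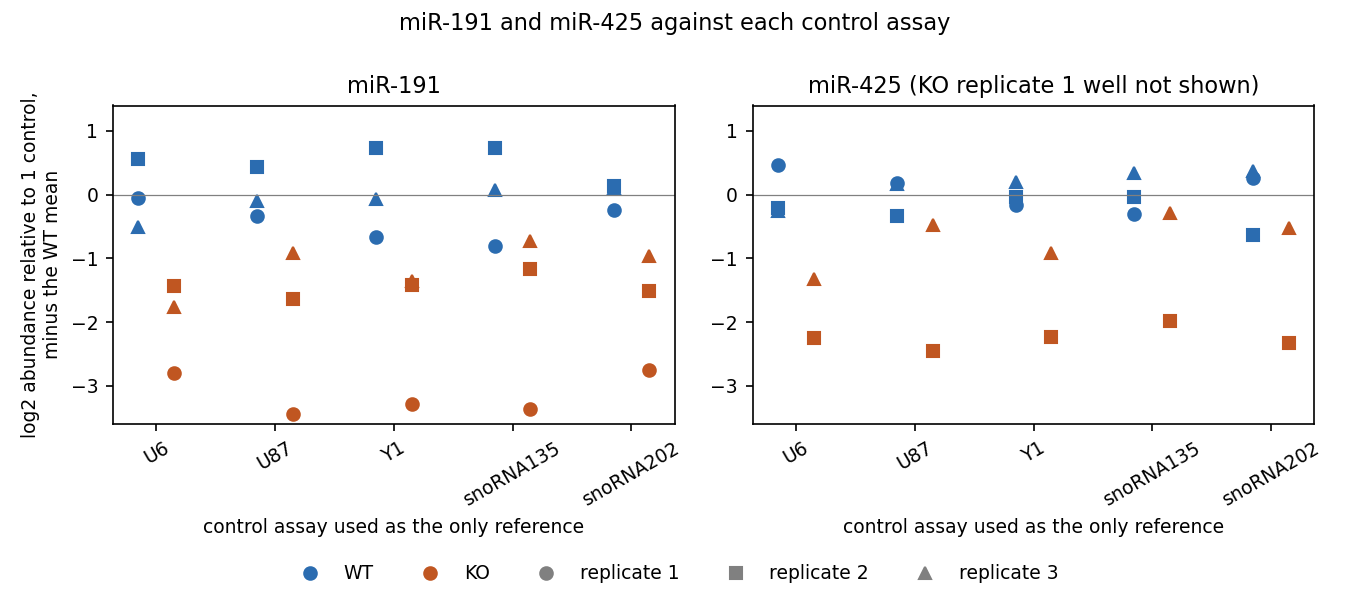
Log2 abundance of miR-191 (left) and miR-425 (right) relative to each of 5 control assays used alone, minus the WT mean (vertical), for WT (blue) and KO (orange) samples with symbols for replicate numbers. The KO points lie below the WT points except where KO replicate 3 of miR-191 overlaps with snoRNA135 as control, and where miR-425 overlaps with snoRNA135 and snoRNA202.

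The authors' deposited table of relative quantities, scaled to WT, gives 0.776, 1.39 and 0.925 for miR-191 in WT and 0.128, 0.386 and 0.449 in KO. In the authors' deposited table of fold changes, KO over WT, miR-191 stands at 0.311. For miR-425 the authors' deposited table gives 1.10, 0.815 and 1.11 in WT and 2.04e-05, 0.220 and 0.611 in KO, so the well at Ct 40 entered as a number. The deposited fold of miR-425 in the authors' deposited table is 0.274, and from the same quantities over the 2 amplified KO wells it would be 0.411. For miR-191* the authors' deposited table gives a fold of 0.241.

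By their profile over samples, the assays most like miR-191 were miR-24, miR-106a and miR-671-3p. Likeness was the root mean square of the differences between log2 profiles, each centred on its WT mean, over the 139 candidate assays of the first block measured in all 6 samples, where the median was 0.76. miR-24, of the miR-23/27/24 clusters, was nearest at 0.20, followed by miR-106a, a member of the miR-17 seed family, at 0.22 and miR-671-3p at 0.22. Their log2 differences between KO and WT were -1.84, -1.66 and -2.12 (limma, adjusted p = 0.0748, 0.0766 and 0.0564; 0.0431, 0.0464 and 0.0426 with the replicate block). In all 3, as in miR-191, KO replicate 1 was the lowest sample, a feature of the profile by which they were chosen.

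miR-425 was compared over the 5 samples where it amplified, with 160 candidates and a median likeness of 0.82. The nearest were miR-26a at 0.23, miR-132, which is induced by CREB, at 0.28 and the hypoxia-induced miR-210 at 0.32. In KO replicate 1, which this ranking left out, these 3 all amplified, with log2 values of -3.84, -3.56 and -2.93 relative to their WT means. miR-191 itself had rank 41 among the candidates for miR-425, at 0.60. These are descriptions of 5 or 6 samples that share RNA inputs and the same controls.

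**Figure D4:**
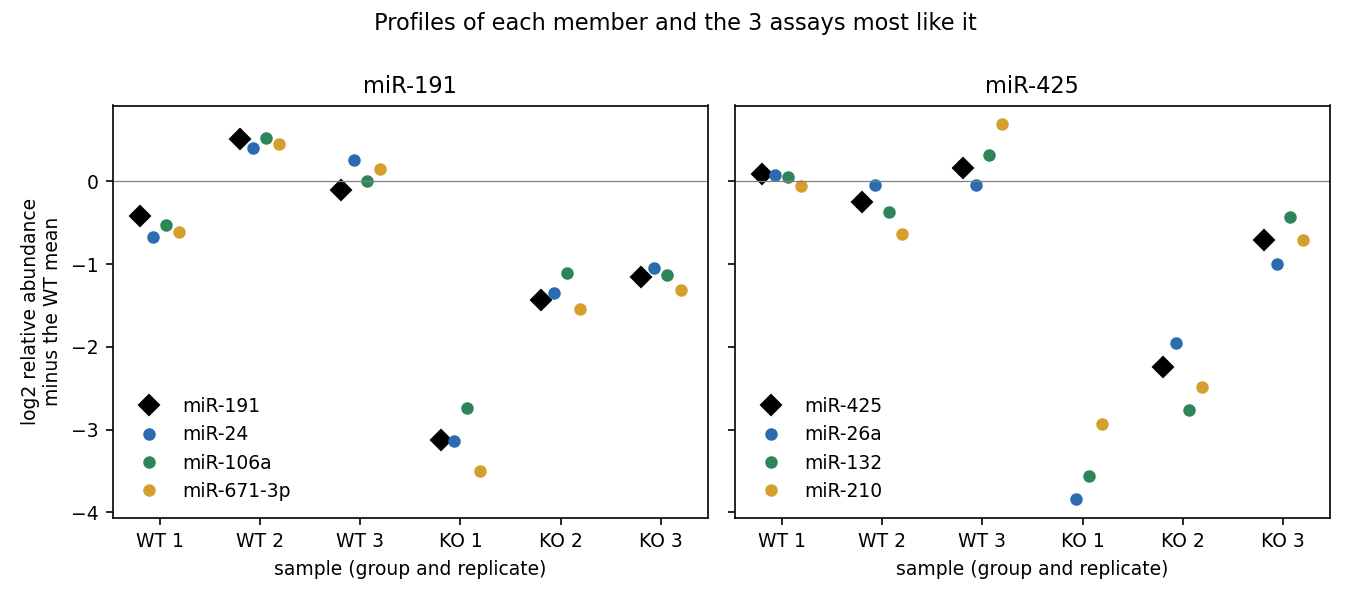
Log2 relative abundance minus the WT mean (vertical) in each sample (horizontal) for miR-191 (left) and miR-425 (right), as black diamonds, with the 3 most similar assays as coloured circles. The nearest assay is miR-24 for miR-191 (0.20) and miR-26a for miR-425 (0.23), and miR-425 has no point in KO replicate 1.

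miR-191 shares its use as a reference with other broadly expressed miRNAs, and a list of 13 of these was set beside it. All 13 were tested and measured in all 6 samples. Of these, 5 fell in KO (limma), beside 37.2% of all tested assays, and 10 passed with the replicate block, beside 41.8%. The KO samples all lay below the WT samples in 12 of the 13, beside 59.9% of all tested assays. The median log2 difference of the list was -1.84, with members from -3.23 to -1.37, and that of all tested assays was -1.91. miR-103, a regulator of lipid and insulin metabolism, fell 9.35-fold (adjusted p = 0.0311), and let-7a, of the let-7 family, fell 7.49-fold (adjusted p = 0.0312). At the other end, miR-16 was at -1.37 (adjusted p = 0.132) and miR-106a at -1.66. The count of the list that fell was 0 without WT replicate 1, 2 or 3 or without KO replicate 2, where 2, 2, 2 and 3 of all assays were lower. It was 3 without KO replicate 1, beside 101 of all assays, and 6 without KO replicate 3, beside 112.

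Within the WT group miR-191 was neither the most nor the least even of the panel. Its SD over the WT samples, 0.48 on the log2 scale, had rank 72 from the lowest among the 140 assays of the first block measured in all 6 samples, whose median was 0.47. The SDs of the list ran from 0.07 for miR-26a to 0.85 for miR-423-5p. The WT SD of miR-425 was 0.22. By mean Ct in WT, 18.2, miR-191 was rank 10 of the 335 miRNA assays of its block, and miR-425, at 21.7, was rank 39. Ct order between assays also holds differences in assay efficiency.

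**Figure D5:**
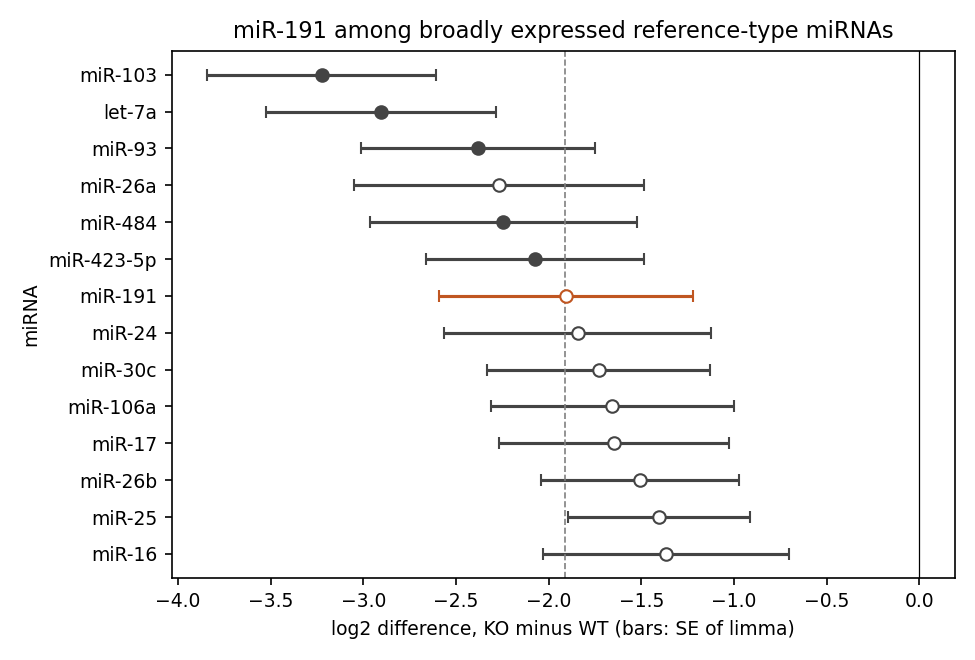
Log2 difference of KO minus WT (horizontal, bars for the SE of limma) of miR-191 (orange) and 13 broadly expressed reference-type miRNAs (vertical), filled where the adjusted p was under 0.05. miR-191, at -1.90, lies inside the range of the list, from -3.23 for miR-103 to -1.37 for miR-16, and near the median of all tested assays (dashed).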

How the data were processed

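RNA extraction used the mirVana kit, and cDNA was made and preamplified with TaqMan reagents, per the labels' protocols; for the software behind the tables, the name is not given in the sources used here. Deposited by the authors were Ct scores of 608 assays, with wells without amplification at 40, and 2 tables of ratios (relative quantities and fold changes). The deposited ratios of the 3 assays were recomputed from Ct with snoRNA135, snoRNA202 and U6 of their block as reference.

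Ct values above 35 were set to 35, and log2 relative abundance was minus the distance from the mean of the 5 controls of the block. An assay was tested if below 35 in all 3 samples of a group, which 282 were. Differences between KO and WT were fitted in limma 3.58.1 (R 4.3.3; eBayes after lmFit, two-sided tests, Benjamini-Hochberg over all tested assays, threshold 0.05). This step was first tested on simulated data with independent samples and the same spread in both groups. In the real data the median SD over all tested assays was 0.57 in WT and 0.98 in KO, so the simulation does not cover that difference in spread. Single values were compared by exact permutation in Python 3.11.15. The groups share replicate numbers. Deviations from the group means, over 282 assays, correlated at 0.23, 0.28 and 0.27 between same-numbered samples. Between differently numbered samples the correlations ran from -0.28 to 0.01. The numbers were therefore taken to pair the samples, although no label states a shared batch. That choice rests on the same values that the fit with a block uses, and deviations within a group cancel, so these correlations depend on each other. The fit without a block is the main one. The number of samples limits the precision, and no read depth exists for RT-PCR.

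The members and lists were chosen with earlier results of these data known. Named were the guides, miR-191*, the controls, the 3 assays most like each guide, and of the reference-type list the 2 smallest and 2 largest adjusted p. From a longer marker list come miR-223, miR-1, miR-122, miR-205, miR-200c, miR-126-3p, miR-9, miR-150, miR-181a, miR-342-3p, miR-451, miR-133a and miR-124. Singled out after their values were seen were miR-495, miR-489, miR-423-5p and the WT SD of miR-26a. Alternatives covered the reference, the ceiling, the filter, the wells at Ct 40, sample weights, the block and each sample left out.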

Additional observations from a re-analysis of the deposited data

How the results depend on the processing

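The log2 difference of miR-191 was negative in all 20 alternatives, but only -0.02 with the global mean (limma, adjusted p = 0.985). That of miR-425 was negative in all 19 that gave a value, since miR-425 was not among assays required in all 6 samples. A negative sign was common on the panel: in the main fit 247 of the 282 tested assays had it. miR-425 passed the threshold in 0 of its 19 alternatives (adjusted p from 0.0548 to 0.57), and its 6 values with a sample left out ran from -6.49 to -1.48. miR-191 passed in 6: with U6 alone (-2.00, adjusted p = 0.0439), with wells at Ct 40 missing (-1.90, 0.04997), with assays required in all 6 samples (-1.90, 0.0321), with the replicate block (-1.90, 0.048), with weights estimated per sample by arrayWeights (-1.58, 0.0312) and with missing wells plus the replicate block, an alternative chosen after seeing the data (-1.90, 0.0318). With a sample left out miR-191 ran from -2.28 to -1.29 (adjusted p from 0.0501 to 0.191). Of all 282 tested assays, 117 were lower in KO with U6 alone, 112 with U6, snoRNA135 and snoRNA202, and 118 with wells at Ct 40 missing. With a ceiling of 38 it was 94 of 291 tested assays. Without a ceiling 87 of 282 were lower, and 115 of 282 with the ceiling set after scaling to the controls. The counts of all assays with the other settings are given below. miR-191* passed with U6 alone (-2.45), with U6, snoRNA135 and snoRNA202 (-2.19), with missing wells, with assays required in all 6 samples, with the replicate block and with missing wells plus the block (-2.17 in these 4) and with arrayWeights (-2.56); with a sample left out it ran from -2.75 to -1.69.

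The difference between miR-191 and miR-425, 0.18, was -0.07 with the replicate block and ran from -0.45 to 0.81 with a sample left out. That between miR-191 and miR-191*, 0.27, was 1.51 with the global mean and 0.12 to 0.45 with the other references, chosen after seeing the data. The count of assays lower in KO, 105, was 4 with the median of the controls, 2 with the global mean, 2 without a reference and 2 without a filter, 114 of 201 with assays required in all 6 samples, 154 with arrayWeights, 118 with the replicate block and 142 with missing wells plus the block; with a sample left out there were 2 to 112. The count of assays higher in KO, 1, was 2 with U6 alone, with a ceiling of 38 and with missing wells plus the block, 0 without a reference (limma; 2 lower), and 1 to 3 with a sample left out. Of the reference-type list 5 passed, beside 0 with the median of the controls, the global mean, no reference or no filter, 12 with assays required in all 6 samples or with arrayWeights, 10 with the replicate block, 13 with missing wells plus the block, and 0 to 6 with a sample left out. The median of all assays, -1.91, became -0.20 with the global mean, -2.45 without a reference, -2.02 with U6 alone and -1.76 with the median of the controls. The cause of these changes was not tested.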
